A study of Mus musculus with 10 samples.

Results

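The complement and coagulation genes of the table were the genes with an Ensembl identifier that the submitters assigned to the KEGG pathway of the complement and coagulation cascades, without the integrins. The rule found 103 members among the 29583 rows of the table. Of these, 42 were complement genes, 31 were coagulation genes, 8 belonged to fibrinolysis and 6 to the kinin system. The other 16 were put in none of these classes. Among them, Otog carried the KEGG entry of von Willebrand factor and Pik3ip1 that of tissue plasminogen activator. Another 4 integrin genes and 2 newly assembled loci carried the pathway and were left out.

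The RNA came from MC3T3-E1 cells, an osteoblast precursor line from the calvaria of newborn C57BL/6 mice, grown in standard medium. The study asked how β-ecdysterone, a plant sterol, acts on osteoblast differentiation, and the labels gave doses of 0, 100, 150 or 200 μM for 5 or 10 days. There was 1 library for each dose on each day, so that the 6 treated libraries were compared with 2 libraries at 0 μM, and 2 untreated libraries (A-5 and B-4) had no time in their labels. The source field called the cells bone marrow stem cells, while titles and protocol named MC3T3-E1. The study's methods give n = 3 for the extraction of RNA without saying whether a library pooled them, and no label said that libraries came from separate cultures, so the p-values measured the spread between these libraries, which may be technical, and the doses stood in for replicates.

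The complement system is a cascade of plasma proteins that marks and lyses microbes and clears debris. It starts from the C1 complex, from lectins or from an alternative loop, meets at C3 and is held back by regulators in plasma and on cells. The coagulation cascade runs from tissue factor and factor VII through factor X and thrombin to fibrin, plasmin dissolves the clot, and the kinins act through bradykinin receptors. The liver makes most of these proteins, and osteoblasts are known to make some, C3 among them.

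The totals lay between 27108562 and 58218009 counts per library, and the members held between 0.253% and 0.446% of them. Of the line's markers, Col1a1 was at 938 FPKM or more in each treated library and at 1283 and 1590 FPKM at 0 μM. FPKM is the authors' measure of level, scaled to transcript length and library depth. At 0 μM Spp1 (1084 and 1095 FPKM) was high too, while Alpl (0 and 0.0225), Ibsp (0.292 and 0.371) and Bglap (0.97 and 0.4) were low. Of 12 osteoblast markers tested, 5 rose in treated cells (Runx2, Sp7, Alpl, Ibsp and Pth1r) and 1 fell (Dmp1). Over all genes tested, 13.4% rose and 5.98% fell. The untreated libraries did not lie together. C3 was at 347 FPKM in A-5 and at 72.4 in B-4, and Pik3ip1 was at 19.7 in A-5 and at 36.3 in B-4, so that A-5 was nearer to 0 μM for these genes and B-4 nearer to treated cells.

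The promoters of 6 members that moved and that sit beside another member, or that led their group, are shown here, since the results come back to them. The sequences are those of RefSeq for GRCm38.p6, from 250 bases before the start of the gene to 50 bases after it, and 35 of the 50 members tested had one. Capitals mark matches, on either strand, to letters bound by NF-kB (GGG, any 5 bases, CC), C/EBP (TTGCNNAA), STAT (TTCNNNGAA) and RUNX (TGTGGT) factors. Adjoining or overlapping matches run together in capitals.
C3, chr17:57228087-57228386, minus strand: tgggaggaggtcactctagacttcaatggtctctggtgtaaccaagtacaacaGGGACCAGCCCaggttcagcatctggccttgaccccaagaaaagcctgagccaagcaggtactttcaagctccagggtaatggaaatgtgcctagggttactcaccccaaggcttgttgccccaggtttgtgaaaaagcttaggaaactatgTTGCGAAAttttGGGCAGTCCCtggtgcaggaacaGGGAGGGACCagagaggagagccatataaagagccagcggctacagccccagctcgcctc
Cfhr2, chr1:139858650-139858949, minus strand: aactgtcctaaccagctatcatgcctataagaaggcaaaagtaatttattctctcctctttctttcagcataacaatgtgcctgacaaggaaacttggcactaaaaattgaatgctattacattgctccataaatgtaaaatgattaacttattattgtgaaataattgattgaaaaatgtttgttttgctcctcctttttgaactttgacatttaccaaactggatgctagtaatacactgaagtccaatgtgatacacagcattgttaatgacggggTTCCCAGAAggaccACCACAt
Gm4788, chr1:139781190-139781489, minus strand: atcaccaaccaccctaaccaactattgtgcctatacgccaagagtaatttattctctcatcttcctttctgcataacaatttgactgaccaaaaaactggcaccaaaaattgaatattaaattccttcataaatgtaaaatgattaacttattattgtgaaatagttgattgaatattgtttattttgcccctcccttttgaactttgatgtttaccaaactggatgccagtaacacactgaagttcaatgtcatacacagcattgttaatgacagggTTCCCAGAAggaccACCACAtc
F7, chr8:13025784-13026083, plus strand: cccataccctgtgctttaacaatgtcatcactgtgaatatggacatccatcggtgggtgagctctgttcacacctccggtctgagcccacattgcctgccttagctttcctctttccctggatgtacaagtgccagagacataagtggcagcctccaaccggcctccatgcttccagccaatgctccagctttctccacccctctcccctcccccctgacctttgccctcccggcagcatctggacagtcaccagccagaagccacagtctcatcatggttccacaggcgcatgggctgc
F10, chr8:13037058-13037357, plus strand: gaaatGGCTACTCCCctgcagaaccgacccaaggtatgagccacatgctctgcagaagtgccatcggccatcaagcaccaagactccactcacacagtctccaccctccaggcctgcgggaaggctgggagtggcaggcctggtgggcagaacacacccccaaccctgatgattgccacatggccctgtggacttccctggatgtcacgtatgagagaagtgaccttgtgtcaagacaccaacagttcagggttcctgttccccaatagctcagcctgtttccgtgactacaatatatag
Bdkrb2, chr12:105562922-105563221, plus strand: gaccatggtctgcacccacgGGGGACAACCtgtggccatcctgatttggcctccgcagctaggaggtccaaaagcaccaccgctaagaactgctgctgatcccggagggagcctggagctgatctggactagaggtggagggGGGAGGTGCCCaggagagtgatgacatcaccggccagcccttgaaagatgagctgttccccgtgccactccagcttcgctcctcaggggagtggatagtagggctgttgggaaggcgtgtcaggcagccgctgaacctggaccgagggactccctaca

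Cfhr2 and Gm4788, neighbours on chromosome 1, had much the same promoter, with 259 identical bases in 307 aligned columns (84.4%). In both a STAT match and a RUNX match stood just after the start of the gene. Such matches were found in 8.3% and 16.8% of the 32851 mouse promoters of this length. The C3 promoter held 4 NF-kB matches, some overlapping, and a C/EBP match that began 45 bases before the start. NF-kB letters occurred in 50.8% and C/EBP letters in 10.8% of all promoters, so that the first kind of match was common. The Bdkrb2 window held 3 NF-kB matches and the F10 window 1, and the F7 window held none of these letters. AP-1 letters (TGANTCA, 7.81% of all promoters) and the interferon element (GAAA, any 2 bases, GAAA; 3.44%) were also searched and were absent from these 6 windows. A match describes the letters only.

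MC3T3-E1 cells held a few members at high levels and most at or near 0. The highest mean level over the 10 libraries was that of C1s1, at 169 FPKM, followed by C3 (140), C1ra (130) and Masp1 (70.0). C1s1 and C1ra are the proteases of the C1 complex, and Masp1 is a protease of the lectin pathway. Among the coagulation genes, F3 (tissue factor, the trigger of coagulation) led at 37.8 FPKM, before Pros1 (protein S, an anticoagulant cofactor) at 26.3 and Thbd (thrombomodulin, which binds thrombin) at 21.8. In fibrinolysis, Plat (tissue plasminogen activator) was at 15.1 FPKM and Plaur (the urokinase receptor) at 10.7. In the kinin system the levels were low, and the receptors Bdkrb1 at 2.09 FPKM and Bdkrb2 at 1.32 FPKM led, before Kng1 (kininogen) at 0.0709.

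In all, 17 members had a mean over 10 FPKM and 29 a mean over 1 FPKM. A further 11 members had no count in any library, among them Cfd (factor D), F9, Fgb (a fibrinogen chain) and C4bp. Other genes of the cascades were near 0 as well. F2 (prothrombin) reached 0.0462 FPKM at most and Plg (plasminogen) 0.0427. Hc (complement C5) reached 0.017 FPKM and C6 0.0623, and the C1q chain C1qb reached 0.172. Serping1, the C1 inhibitor, was at 0.0767 FPKM or less, and C3ar1, a receptor of the C3 fragment, at 0.0254 or less. F5 and Cd55 had means of 0.0057 and 0.0112 FPKM. These cells held RNA of the starting proteases and of C3, while RNA of prothrombin, fibrinogen and, apart from C8g, the terminal pathway was at or close to the limit that the depth allowed.

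**Figure D1:**
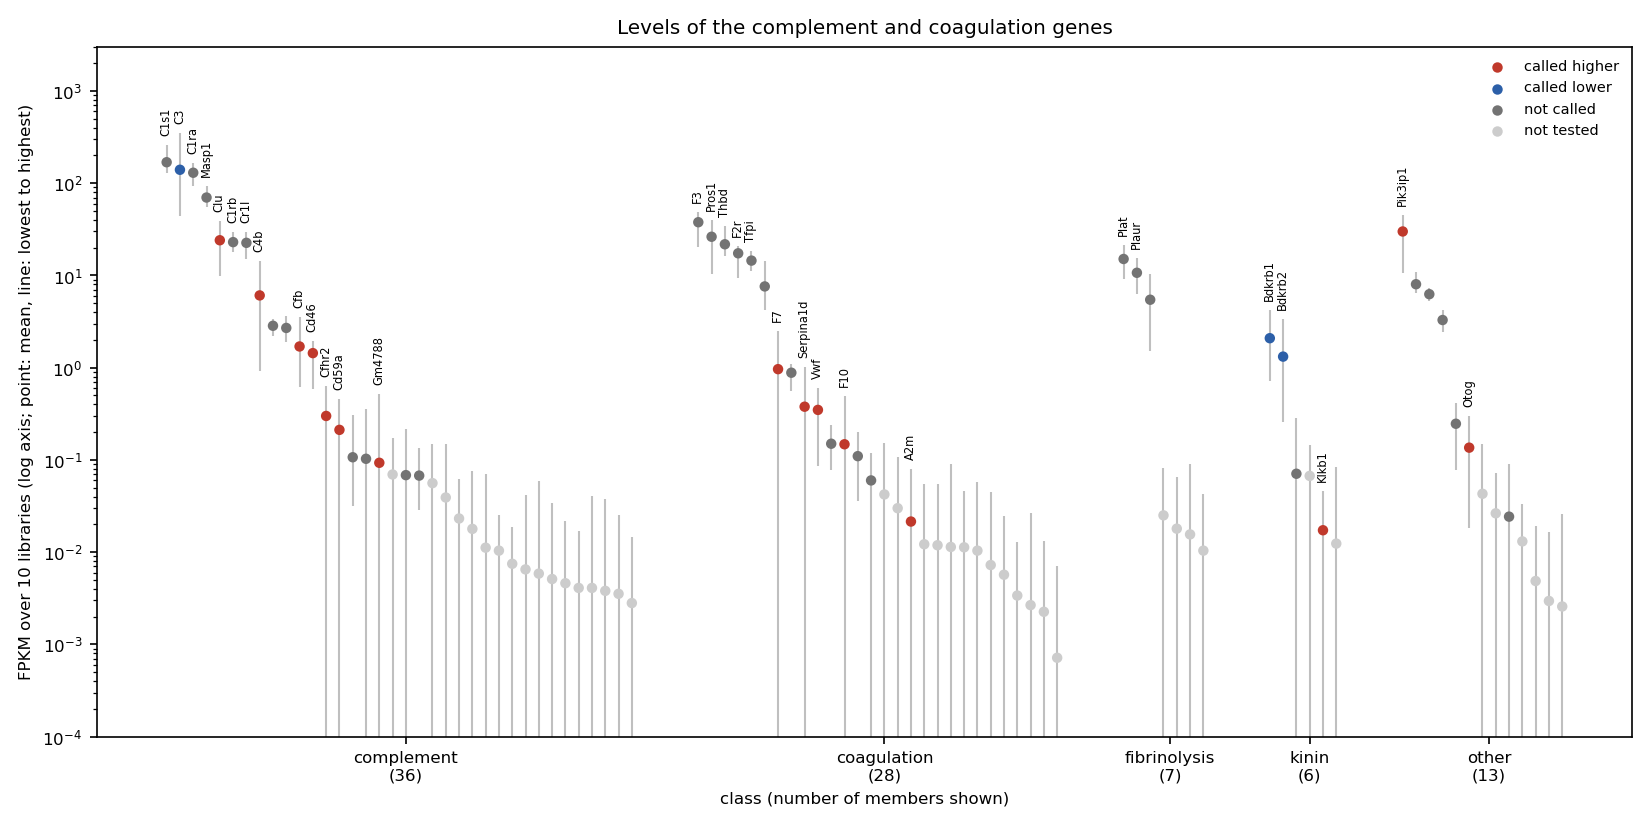
Mean FPKM of each member with a count in any library (points, log axis), with lines from the lowest to the highest of the 10 libraries, lines that reach the lower edge starting at 0. Members are ordered within their class and coloured by the comparison of treated cells with 0 μM, and members not reported here are left out. C1s1, C3, C1ra and Masp1 lie between 70.0 and 169 FPKM, and no member that was not tested reaches more than 0.172 FPKM in any library.

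Treated cells were compared with 0 μM by edgeR's quasi-likelihood test over all genes, with day in the model. Calls needed both an adjusted p (Benjamini-Hochberg, over all genes) below 0.05 and a log2 fold change of more than 1 in size. Of 103 members, 50 passed edgeR's filter on low counts, and 16 of them rose and 3 fell. Over all 16794 genes tested, 13.4% rose and 5.98% fell, against 32.0% and 6.0% of the members. Of the 16 that rose, 5 had no count in both libraries at 0 μM and 8 had under 10 counts in both, so that part of the group could only enter the test through treated cells. Among the 31 members with at least 10 counts in each of the 8 libraries, 7 rose and 3 fell, where 8.28% and 5.55% of all such genes did. The median log2 fold change was 0.61 over the 50 members, beside 0.0456 over all genes. The 5 genes without counts at 0 μM lay above 0.61 even at their lower bounds, so using the bounds could not move this median. In 16 of the 19 members called, the normalized counts of treated and 0 μM libraries did not overlap. The share without overlap was not computed over all genes called, so whether this count is particular to the members was not tested. Against the untreated libraries in place of 0 μM, 6 of the 19 calls were kept. In bulk RNA, fewer cells of a type and less RNA per cell cannot be told apart.

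Of the regulators of complement, 6 of 8 tested members were called higher and none lower. Clu encodes clusterin, a chaperone that also blocks the terminal complex. It was at 11 and 9.88 FPKM at 0 μM and between 21.2 and 38.6 (median 34.9) in treated cells. The groups did not overlap, and both untreated libraries, at 11.5 and 10.8 FPKM, lay with 0 μM. The rise was 1.68 on the log2 scale (SE 0.23, adjusted p = 3.6e-04).

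Gm4788 and Cfhr2, whose promoters are given above, belong to a family of plasma regulators and lie 22923 bases apart on the same strand of chromosome 1. Cfhr2 (chr1:139804167-139858702) was at 0.0653 and 0.0387 FPKM at 0 μM and between 0.269 and 0.621 (median 0.335) in treated cells, a log2 rise of 2.58 (SE 0.48, adjusted p = 0.0019). A-5 held no count of Cfhr2 and B-4 0.633 FPKM, above the treated range, so that against them the log2 fold change was 0.60 (adjusted p = 0.67). Gm4788 (chr1:139697623-139781243) had no count in both libraries at 0 μM, both untreated libraries and treated cells at 100 and 150 μM on day 5. It had 7 counts at 200 μM on day 5 and 14, 105 and 40 counts at 100, 150 and 200 μM on day 10. The groups thus overlapped at 0, and the call (adjusted p = 0.0291) rested on 4 libraries. Its mean level in treated cells was at least 6.18-fold higher than the floor of 3 counts in a library at 0 μM.

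These genes share sequence, so reads could be split between them and other genes. Of the 31-base words in the transcripts of Cfhr2, 42.6% also occurred in some other gene and 16.6% in Gm4788, and 37.0% of those of Gm4788 occurred in some other gene. Without the library at 0 μM on day 10, Gm4788 lost its call (adjusted p = 0.39).

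Cd46, a cofactor for the cleavage of C3b, had 41 and 151 counts at 0 μM and between 321 and 611 counts in treated cells. The groups did not overlap, and the log2 rise was 2.14 (SE 0.47, adjusted p = 0.0052). In counts scaled to depth (CPM) the ratio of the means was 3.85, while in FPKM it was 2.11, with 0.581 and 0.982 FPKM at 0 μM and 1.32 to 1.97 in treated cells. Why the count and the FPKM differed was not tested. A-5 and B-4 held 226 and 354 counts in smaller libraries, and against them the log2 fold change was 0.16 (adjusted p = 0.60). Without 1 library at 0 μM the value was 1.17 (day 10 alone) or 3.72 (day 5 alone), so the size of the rise depended on the library at 0 μM on day 5.

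Cd59a, an inhibitor of the membrane attack complex, was at 0.0198 and 0.0318 FPKM at 0 μM (2 and 3 counts) and between 0.150 and 0.458 FPKM in treated cells. The log2 rise was 3.29 (SE 0.69, adjusted p = 0.00395). A-5 and B-4 held 0 and 0.0920 FPKM, and the call was lost against them (adjusted p = 0.060). Of the words of Cd59a, 8.23% also occurred in its relative Cd59b, which stayed at 0.149 FPKM or less and was not tested. Cr1l (Crry, the main membrane regulator in rodents) was at 18.0 and 21.7 FPKM at 0 μM and between 21.2 and 29.3 in treated cells. Its log2 fold change of 0.47 (SE 0.14, adjusted p = 0.0233) lay under the fold limit.

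**Figure D2:**
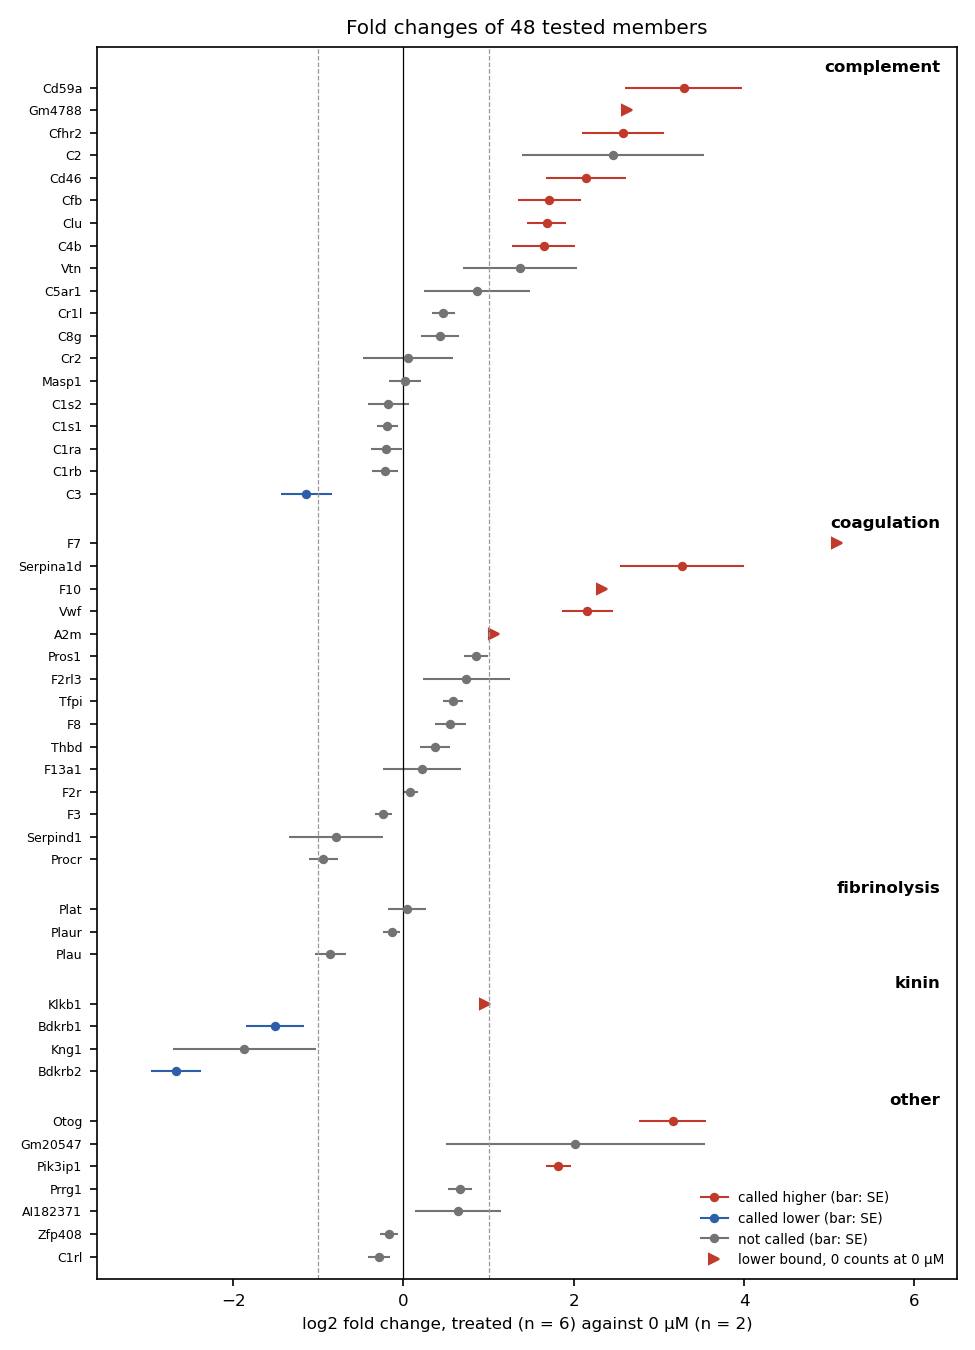
Log2 fold changes of 48 of the 50 tested members, treated (n = 6) against 0 μM (n = 2), by class, with bars of 1 SE and dashed lines at the fold limits of -1 and 1. Triangles give the lower bound for the 5 genes with 0 counts at 0 μM, in place of the fitted value. Of the complement genes shown, C3 alone lies to the left as called.

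C3, where the pathways of complement meet, fell. It was at 199 and 226 FPKM at 0 μM and between 44.3 and 127 (median 88.9) in treated cells, with the lowest value at 150 μM on day 5. All 6 treated libraries lay below both at 0 μM. The fall was 1.14 on the log2 scale (log2 fold change -1.14, SE 0.30, adjusted p = 0.013), or 2.21-fold. The call was lost without either library at 0 μM (adjusted p = 0.088 without day 5 and 0.074 without day 10). Without treated cells at 150 μM on day 5 the log2 fold change was -0.98, just under the fold limit. Against the untreated libraries it was -1.11 (adjusted p = 0.14), with A-5 and B-4 far apart.

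Cfb, the protease of the alternative pathway that acts with C3b, moved the other way. It was at 0.752 and 0.611 FPKM at 0 μM and between 1.33 and 3.56 (median 2.17) in treated cells, a log2 rise of 1.71 (SE 0.37, adjusted p = 0.00444). Without 0 μM on day 10, it was 1.21 (adjusted p = 0.073). B-4, at 1.35 FPKM, lay within the treated range and A-5, at 0.872, below it, and against them Cfb lost its call (adjusted p = 0.056). The exons of Cfb shared 79.5% of their bases with those of Gm20547, another member, which also overlaps C2, had at most 22 counts and was not called. C2, its counterpart in the classical pathway, had 3 and 2 counts at 0 μM and up to 25 in treated cells, and its log2 fold change of 2.46 (SE 1.07) missed the threshold (adjusted p = 0.09).

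Of the genes that start complement, 1 of 7 tested was called. C4b (complement C4, cleaved by the C1 and lectin proteases) was at 2.52 and 2.94 FPKM at 0 μM and between 5.27 and 14.4 (median 7.18) in treated cells. The log2 rise was 1.65 (SE 0.37, adjusted p = 0.00554), and it was 1.26 without 0 μM on day 5 (adjusted p = 0.074). B-4 held 0.927 FPKM, below both libraries at 0 μM. Of its words, 48.3% also occurred in C4a, which was not among the members.

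The proteases upstream of C4 did not pass the test. C1s1 was at 166 and 177 FPKM at 0 μM and between 128 and 160 in treated cells (log2 fold change -0.19, SE 0.12). C1ra was at 127 and 163 FPKM at 0 μM and between 93.7 and 145 in treated cells (log2 fold change -0.20, SE 0.18). Their close relatives C1s2 (-0.18, SE 0.24) and C1rb (-0.22, SE 0.15) had like values, and 70.0% of the words of C1rb occurred in C1ra and 40.4% of those of C1s2 in C1s1. Masp1 had a log2 fold change of 0.02 (SE 0.19). The FPKM of C1s1 did not overlap between the groups, while its normalized counts did, as did those of the other 4 genes.

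Of the complement receptors, C5ar1 (the receptor of C5a) was at 0.0141 and 0.109 FPKM at 0 μM and up to 0.216 in treated cells, and was not called (log2 fold change 0.86, SE 0.62). C8g, a lipocalin that is part of the terminal complex, was the 1 gene of the terminal pathway with counts enough to test. It was at 2.49 and 2.23 FPKM at 0 μM and between 2.51 and 3.39 in treated cells (log2 fold change 0.43, SE 0.22).

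Of the coagulation factors, 3 of 6 tested rose and none fell. F7 (factor VII, the partner of tissue factor) had no count in both libraries at 0 μM. It had 52, 104 and 63 counts at 100, 150 and 200 μM on day 5 and 99, 291 and 239 counts on day 10. This was between 0.826 and 0.995 FPKM on day 5 and between 1.70 and 2.50 FPKM on day 10, so that all treated libraries held it. The mean in treated cells was at least 34.2-fold higher than the floor of 3 counts at 0 μM (adjusted p = 7.0e-06). A-5 and B-4 held 0.0817 and 0.502 FPKM, below the treated range, and against them the log2 fold change was 2.32 (adjusted p = 0.052).

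F10 (factor X, which F7 activates and which cuts prothrombin) starts 1498 bases to the right of the end of F7 on the same strand of chromosome 8. It too had no count at 0 μM, nor in the untreated libraries. It had 6, 7 and 2 counts at 100, 150 and 200 μM on day 5 and 17, 48 and 48 counts on day 10. Its level of 0.0418 to 0.492 FPKM in treated cells was below that of F7 in each library. The mean was at least 5.04-fold higher than the floor (adjusted p = 0.00103). Mcf2l, which ends 5128 bases to the left of F7 on the same strand, rose as well (log2 fold change 2.70, adjusted p = 3.4e-05). Reads that run on from one gene into the next were not tested.

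Vwf (von Willebrand factor, which carries factor VIII and tethers platelets) was at 0.135 and 0.0866 FPKM at 0 μM and between 0.331 and 0.602 (median 0.479) in treated cells. The log2 rise was 2.16 (SE 0.30, adjusted p = 3.7e-04). Vwf marks endothelial cells, and of 10 other endothelial markers 2 of 7 tested rose (Cdh5 and Tek), beside 13.4% of all genes. The summed level of the 10 was 1.42 to 1.68 FPKM at 0 μM and 0.993 to 2.12 FPKM in treated cells. Ano2, which starts 3739 bases to the right of Vwf on the same strand, rose by 10.06 on the log2 scale. The part of either in the rise of Vwf was not tested.

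F3 itself was not called. It was at 46.4 and 48.8 FPKM at 0 μM and between 34.5 and 43.3 in treated cells, with no overlap, and the log2 fold change was -0.24 (SE 0.10, adjusted p = 0.0681). In A-5 and B-4 it was at 20.5 and 28.4 FPKM, so that against these the value turned to 0.69 (adjusted p = 0.017). F8 (factor VIII) had a log2 fold change of 0.55 (SE 0.18, adjusted p = 0.0286), under the fold limit. F13a1, the chain that crosslinks fibrin, was at 0.0357 to 0.199 FPKM in treated cells and was not called (log2 fold change 0.22, SE 0.46). F2r, the main thrombin receptor, stood at 19.5 and 18.2 FPKM at 0 μM and between 17.0 and 20.8 in treated cells (log2 fold change 0.08, SE 0.09).

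Of the anticoagulants, 2 of 7 tested rose. Serpina1d, an α1-antitrypsin gene, had 0 and 8 counts at 0 μM and between 16 and 89 in treated cells, a log2 rise of 3.27 (SE 0.73, adjusted p = 0.00548). It shared 64.7% of its words with other genes, chiefly Serpina1a, Serpina1b and Serpina1c, so its counts are uncertain. A2m (α2-macroglobulin, a broad inhibitor of proteases) had no count at 0 μM, at 100 μM on day 5 and in the untreated libraries, and between 2 and 22 counts in the other treated libraries. Its mean in treated cells was at least 2.09-fold higher than the floor (adjusted p = 0.0291). The call was lost without either library at 0 μM (adjusted p = 0.086 and 0.18).

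The more abundant anticoagulants moved less. Pros1 was at 18.7 and 17.9 FPKM at 0 μM and between 24.6 and 39.7 (median 34.1) in treated cells, without overlap. Its log2 fold change was 0.85 (SE 0.14, adjusted p = 0.00102), under the fold limit, and it was called without 0 μM on day 5 (1.12). Tfpi, which inhibits tissue factor and factor VII, was at 11.1 and 12.6 FPKM at 0 μM and between 13.2 and 18.4 in treated cells (log2 fold change 0.58, SE 0.12, adjusted p = 0.00398). Procr, the receptor of protein C, was at 10.1 and 11.2 FPKM at 0 μM and between 4.23 and 6.84 in treated cells (log2 fold change -0.94, SE 0.17, adjusted p = 0.00182). A-5 and B-4 held 20.2 and 10.4 FPKM of Pros1, and 14.4 and 8.7 FPKM of Procr. With these libraries in place of 0 μM, or added to it, Pros1 and Procr were both called. Thbd overlapped between the groups (log2 fold change 0.37, SE 0.18, adjusted p = 0.122).

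**Figure D3:**
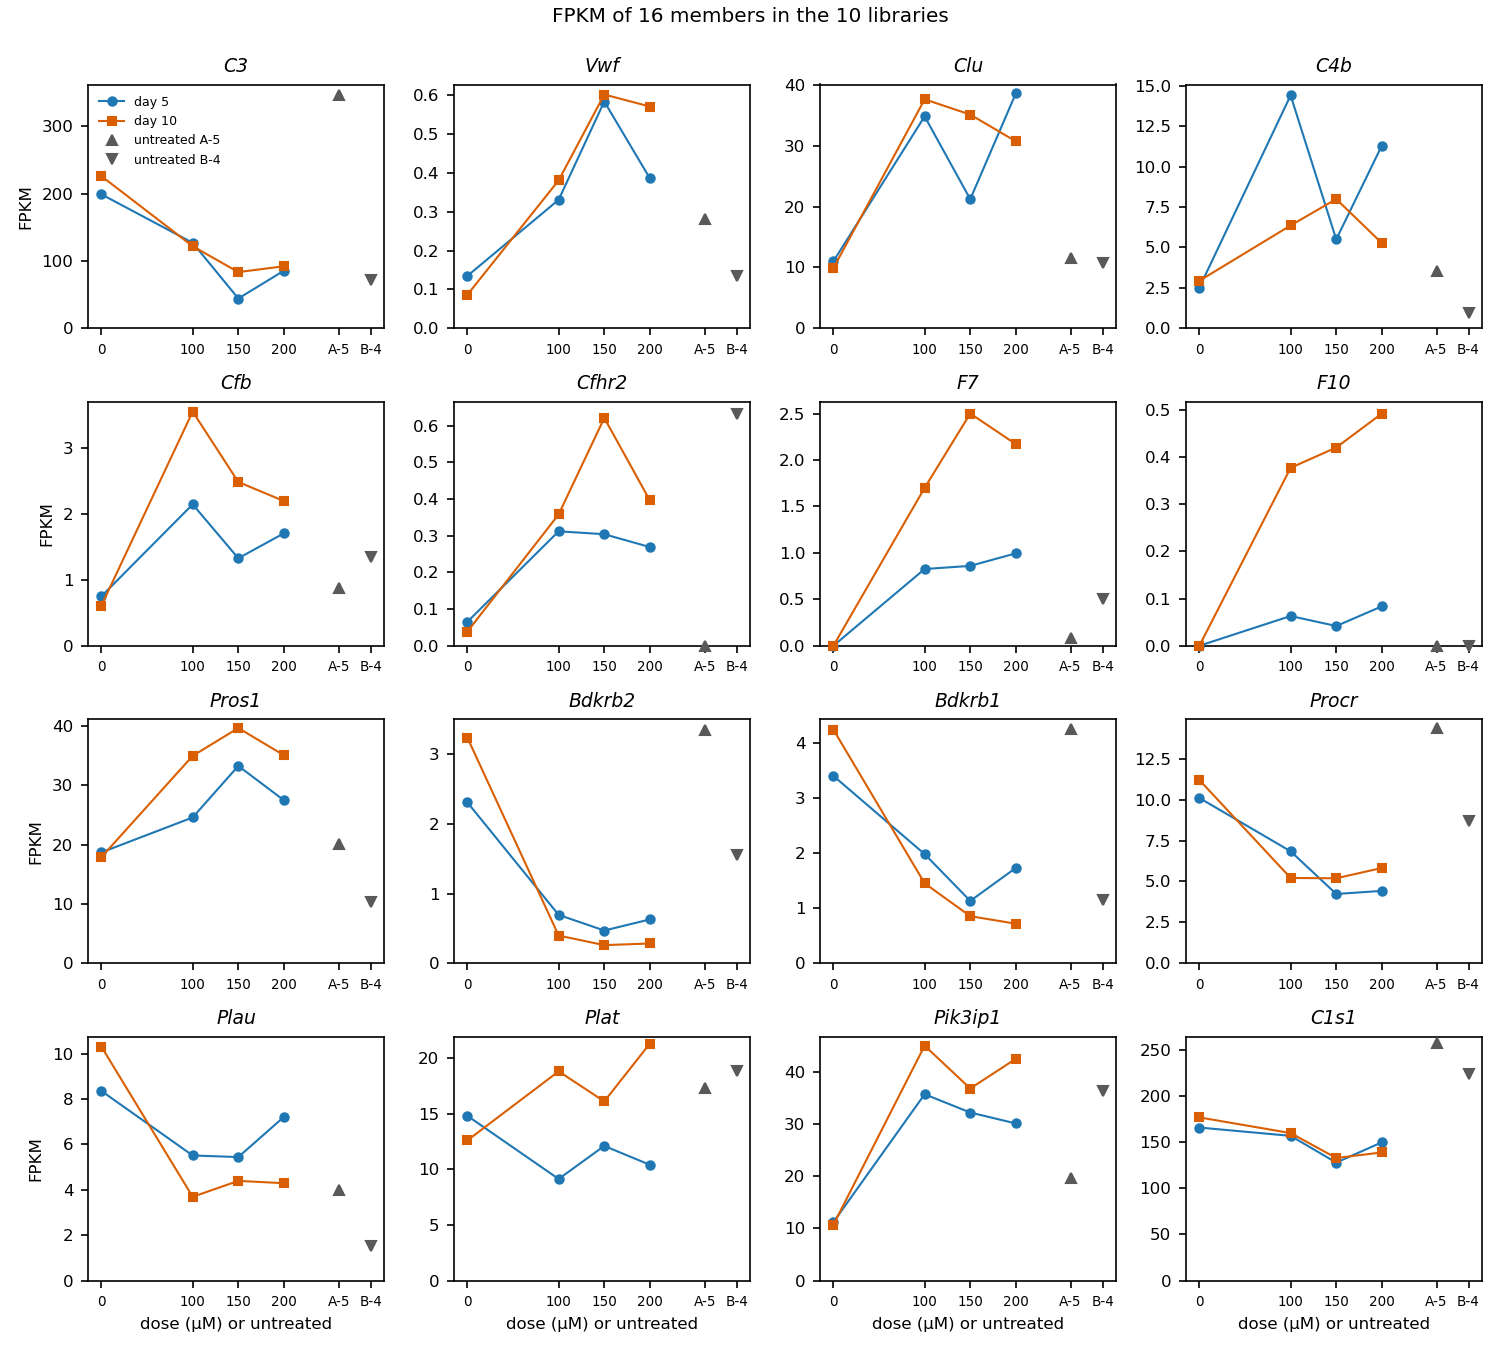
FPKM of 16 members in each library, against dose on day 5 (circles) and day 10 (squares), with the untreated libraries A-5 and B-4 as triangles. Each panel starts at 0. F7 and F10 are at 0 in both libraries at 0 μM and higher on day 10 than on day 5, Bdkrb2 and Bdkrb1 are lower in all treated libraries, and C1s1 keeps its level between 128 and 177 FPKM over the doses of both days.

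In fibrinolysis 0 of 4 tested members passed both limits in edgeR's test, and DESeq2 also called 0. In edgeR's test 2 of them had an adjusted and an unadjusted p under 0.05. Without the fold limit 22.6% of all genes rose and 20.8% fell. Plau, the urokinase protease, was at 8.35 and 10.3 FPKM at 0 μM and between 3.69 and 7.21 (median 4.91) in treated cells, without overlap (log2 fold change -0.86, SE 0.18, adjusted p = 0.00343). A-5 and B-4 held 3.98 and 1.52 FPKM, so that against them the log2 fold change of Plau was 0.93 (adjusted p = 0.082). Plaur had a log2 fold change of -0.14 (SE 0.10).

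Both bradykinin receptors fell. Bdkrb2, the receptor present in most tissues, was at 2.31 and 3.24 FPKM at 0 μM and between 0.259 and 0.694 (median 0.433) in treated cells. All treated libraries lay below both at 0 μM and below A-5 (3.35 FPKM) and B-4 (1.56 FPKM). The fall was 2.67 on the log2 scale (log2 fold change -2.67, SE 0.29, adjusted p = 9.0e-05), or 6.36-fold. Bdkrb1, the receptor that inflammation induces, starts 7847 bases to the right of Bdkrb2 on the same strand of chromosome 12. It was at 3.40 and 4.24 FPKM at 0 μM and between 0.716 and 1.98 (median 1.29) in treated cells. Its log2 fold change was -1.51 (SE 0.34, adjusted p = 0.00528), and -1.12 (adjusted p = 0.11) without 0 μM on day 10. A-5 held 4.25 FPKM and B-4 1.14 FPKM, within the treated range, and the call was lost against the untreated libraries (adjusted p = 0.25).

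Of the ligand side, Kng1 had 13 and 8 counts at 0 μM and 0 to 7 in treated cells, and missed the threshold (log2 fold change -1.87, SE 0.84, adjusted p = 0.0979). Klkb1, the protease that frees bradykinin from kininogen, was called on very few counts, with 0 in both libraries at 0 μM, 0 at 200 μM on day 5 and 8 to 11 in the others. Its mean was at least 1.94-fold higher than the floor (adjusted p = 0.0297), and 43.2% of its exon bases were shared with Gm45753. Without 0 μM on day 10 the adjusted p was 0.14. Summed over the kinin members, the level was 5.85 and 7.63 FPKM at 0 μM and between 1.09 and 2.96 FPKM in treated cells. It was 8.01 FPKM in A-5 and 2.78 in B-4, within the treated range.

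Of the members put in none of the classes above, 2 of 7 tested rose. Pik3ip1, which holds a kringle domain and restrains the lipid kinase PI3K, was at 11.2 and 10.7 FPKM at 0 μM and between 30.1 and 45.0 (median 36.3) in treated cells (log2 fold change 1.82, SE 0.15, adjusted p = 1.6e-05). A-5 held 19.7 FPKM and B-4 36.3, and against them the log2 fold change was 0.56 (adjusted p = 0.18). Otog, a matrix protein of the inner ear with von Willebrand domains, was at 0.0208 and 0.0247 FPKM at 0 μM and between 0.135 and 0.297 in treated cells (log2 fold change 3.16, SE 0.39, adjusted p = 1.8e-04). Neither is known as a protein of clotting.

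Within treated cells, day 10 was compared with day 5 over 3 libraries each. Of 44 members tested, 2 were called higher (0.905% of all 16020 genes) and 0 lower (0.144%). At an unadjusted p under 0.05 there were 16 of the 44, beside 2930 of all 16020 genes. F7 was 2.53-fold higher on day 10 (log2 fold change 1.34, SE 0.21, adjusted p = 0.016) and F10 6.56-fold higher (log2 fold change 2.71, SE 0.44, adjusted p = 0.0175). In both, all 3 libraries of day 10 lay above all 3 of day 5. Both calls were lost without 200 μM on day 5 or without 200 μM on day 10. DESeq2 also gave 2 members higher and 0 lower, as did edgeR with the dose as a block.

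Without the fold limit 2.08% of all genes were higher on day 10. Another 3 members had an adjusted p under 0.05 with a fold change under the limit, Plat among them. It had 9.13, 12.1 and 10.4 FPKM at 100, 150 and 200 μM on day 5 and 18.8, 16.1 and 21.3 on day 10 (log2 fold change 0.92, SE 0.12, adjusted p = 0.0117). At 0 μM there was 1 library for each day, so that the same contrast had no replicates without β-ecdysterone.

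Whether the change against 0 μM differed between the days was tested with 1 library at 0 μM on each day. In edgeR's test 0 of 50 members passed (0.0119% of all genes). At an unadjusted p under 0.05 there were 6 members, beside 1395 of all 16794 genes. DESeq2 called 2, Cd46 and Plat (0.429% of all genes). For Cd46 the log2 fold change was 3.73 on day 5 and 1.17 on day 10 (difference -2.56, SE 0.36, adjusted p = 0.143). Plat was below 0 μM on day 5 (-0.48) and above it on day 10 (0.67), a difference of 1.15 (SE 0.25, adjusted p = 0.349). For the genes without counts at 0 μM this test has no value. Over the doses from 100 to 200 μM, edgeR found a trend in 0 of 44 members (0% of all 16020 genes). At an unadjusted p under 0.05 there were 0 members, beside 380 of all genes. DESeq2 found 0 as well. The 0 μM libraries took no part in that test.

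Genes that work with these cascades but carry no annotation to them came from lists written beside the members. These lists and the markers below stand beside 13.4% of all genes tested that rose and 5.98% that fell. The median log2 fold change of all genes was 0.0456. Of 16 tested genes related to coagulation, 4 rose and 1 fell, with a median log2 fold change of 0.24. Gas6, a vitamin K-dependent ligand related to protein S, was at 65.5 and 76.6 FPKM at 0 μM and between 441 and 782 in treated cells (log2 fold change 3.31, SE 0.23, adjusted p = 6.8e-06). Mertk, a receptor of Gas6 and protein S, was at 1.52 and 1.06 FPKM at 0 μM and between 77.6 and 103 in treated cells (log2 fold change 6.12, SE 0.25, adjusted p = 6.2e-07). Its relatives Axl (-0.94) and Tyro3 (-0.76) had lower values under the fold limit. In A-5 and B-4, Gas6 was at 128 and 217 FPKM and Mertk at 2.84 and 47.8 FPKM. These levels lay above 0 μM and below the treated range.

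Of 10 tested genes related to complement, 2 rose and 1 fell, with a median of 0.36. C1qtnf1 rose from 2.44 and 2.28 FPKM at 0 μM to between 16.8 and 28.3 in treated cells (log2 fold change 3.16, SE 0.18, adjusted p = 2.2e-06). Csmd1, with at most 21 counts in a library, was the other that rose. Ptx3, a pentraxin that binds C1q, was at 145 and 173 FPKM at 0 μM and between 20.6 and 45.2 in treated cells (log2 fold change -2.48, SE 0.20, adjusted p = 1.5e-05). Both untreated libraries were lower still, at 10.7 and 11.2 FPKM. Of 12 tested genes related to fibrinolysis, 2 rose and 3 fell, with a median of -0.32. Of 22 genes of acute-phase and interferon signals, which include factors that bind the letters marked above, 2 rose and 5 fell, with a median of -0.38. Il6 was at 2.77 and 1.90 FPKM at 0 μM and between 0.105 and 0.434 in treated cells (log2 fold change -3.67, SE 0.28). Irf1 (-1.71), Socs3 (-1.57), Osmr (-1.27) and Relb (-1.21) fell as well. In A-5 and B-4 Il6 was at 0.632 and 0.103 FPKM. B-4 lay within or below the treated range for Il6, Irf1, Osmr and Relb, and above it for Socs3. A-5 lay above that range for all of these but Osmr. The part of these genes in the changes of the members was not tested.

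The liver and blood cells are known sources of these proteins, and Lyz2 was the highest of their markers looked at here. Of 10 hepatocyte markers, 4 were tested and 1 (Hnf4a) was called higher, with a summed level of 0.134 and 0.218 FPKM at 0 μM and 0.0922 to 0.481 FPKM in treated cells. Alb reached 0.0568 FPKM, and Ttr, Ahsg and Apoc3 had 0 counts in all libraries. Of 10 markers of macrophages and leukocytes, 5 were tested, Lyz2 rose and Cd14 fell, with a summed level of 18.2 and 27 FPKM at 0 μM and 24.6 to 45.1 FPKM in treated cells. Most of it was Lyz2, at 21.3 to 41.7 FPKM in treated cells, while Ptprc (CD45) reached 0.0373 and Tyrobp had 0 counts in all libraries. Of 8 markers of megakaryocytes and platelets, 5 were tested, Gp1bb and Treml1 rose and Ppbp fell, with a summed level of 3.30 and 3.33 FPKM at 0 μM and 3.05 to 6.17 FPKM in treated cells. The part of such cells in the levels of the members was not tested.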

How the data were processed

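The authors enriched mRNA of MC3T3-E1 cells with oligo(dT) and sequenced 10 libraries on the Illumina platform. They deposited, per gene and library, counts without normalization and FPKM values. The submitters' processing notes name HISAT2 2.0.4 and GATK 3.2-2. The counting program, genome build, annotation and use of strand are not given in the sources used here. The p-values and log2 fold changes that the authors deposited, from comparisons of single libraries, were not used, and annotation terms gave the members. In every library more genes had 2 counts than 1 (3.53 to 4.96 times), and halving the counts was tried after this was seen.

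Counts were tested with edgeR 4.0.16 (TMM, filterByExpr, quasi-likelihood) in R 4.3.3, and DESeq2 1.42.0 and limma 3.58.1 served as alternatives, beside other normalizations, filters, fold limits and controls, no term for day, and each library left out. The edgeR fits for treated cells against 0 μM, for the days, for the difference between days and for the dose trend were first run on simulated counts. The alternatives were not. The floor was 3 counts in a library (at most 0.0943 CPM at 0 μM) and covers counting error only. Positions and transcripts came from GENCODE M21 (GRCm38), and shared sequence was the share of words of 31 bases. The members, lists and tests were chosen with earlier results of these data known. The genes named were all members called, the 3 most abundant of each class, a written list and near-identical pairs. C2, C6, C8g, Cfd, C1qb, C4bp, Cr1l, F2, F8, F9, Fgb, Hc, Masp1, Plg, Procr and Gm20547 were named after their values were seen. The values of 2 members are not reported here, though counts over groups include them.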

Additional observations from a re-analysis of the deposited data

Results flagged for a closer look

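In 35 named and tested members, the lowest and highest of the 6 treated libraries were compared with the rest of their group, and 2 stood apart by Dixon's criterion, where chance gives about 1 in 20. F2r was lowest at 200 μM on day 10, with a gap of 0.683 of the range, and Klkb1 was lowest at 200 μM on day 5, where it had 0 counts, with a gap of 0.745. A newly assembled locus that the submitters assigned to complement C4 was left out of the members and had a log2 fold change of 0.82 (SE 0.18, edgeR adjusted p = 0.00551), under the fold limit.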

How the results depend on the processing

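With 1 library per dose and day and 2 at 0 μM, the calls lean on both controls, and low counts limit 53 members that could not be tested. The 16 members called higher became 7 with at least 10 counts in every library. They became 6 against the untreated libraries (6.73% of all genes) and 10 with them added (8.41%). With limma on log2(FPKM + 1), where a pseudocount of 1 holds down low genes, they became 5 (3.13%). With a library left out there were 12 to 16. Counts given here include members newly called, so they are not the calls kept. Pros1, not among the 16, is in the 6 and in the 10. The 3 called lower became 5 without a fold limit and 1 to 4 with a library left out, 1 of them without 0 μM on day 10. Without a fold limit 20.8% of all genes were called lower against 0 μM. The 2 members higher on day 10 became 1 with at least 10 counts in every library (0.939% of all genes). They became 5 without a fold limit (2.08%) and 0 to 3 with a library left out (0.104% to 1.18%). For the difference between days 0 became 2 with DESeq2 and with a filter of 1 count, and 0 to 1 with a library left out; for the dose trend 0 became 1 (C3) with that filter.

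Among the log2 fold changes of 35 members under 18 alternatives, 536 kept their direction and side of the threshold, 36 fell short of it, 5 came to pass it and 11 changed sign. Against the untreated libraries, Plau was at 0.93, F3 at 0.69, Plaur at 0.86 and Plat at -0.26. With them added, F3 was at 0.16, Plaur at 0.27 and Plat at -0.060. Plat was at -0.0093 without TMM, and, with a library left out, between -0.49 (without 0 μM on day 10) and 0.67 (without 0 μM on day 5), with -0.0013 without 100 μM on day 10 and -0.012 without 200 μM on day 10. Library totals without TMM moved the median of all genes from 0.0456 to -0.0102, and from -0.00077 to -0.128 for day 10 against day 5. The causes were not tested. The labels number no replicates, but each dose occurs on both days, so a block of dose was added for day 10 against day 5 after the data were seen. It gave 2 members higher and 0 lower, F7 and F10 as before. Deviations of libraries with the same dose correlated at 0.12, 0.14 and -0.06 for 100, 150 and 200 μM. Pairs of unlike doses gave -0.16 to 0.07. These are deviations from the mean of 3 libraries on each day, so they cannot decide whether the doses paired the libraries. Treated cells and 0 μM share no dose, so that comparison had no such block.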
